A study of Mus musculus and Homo sapiens with 34 samples.

Results

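Cym, Pgc and Ctse encode aspartic proteases best known from the stomach, and their RNA was followed here through every library of a study of lung adenocarcinoma models. The 3 genes were taken by name from the tables of gene counts, out of 48431 different gene identifiers in the whole series, with 16553 to 26245 genes in any 1 table. They were chosen with earlier results of these data known. The change of Cym in the organoid line 1027B was part of that choice, and which values led to Pgc and Ctse is not recorded. Changes of the 3 genes in 1027B are therefore given as a description with no test, and no p-value elsewhere is independent support for the choice. The lists of other genes read beside them were also chosen with earlier results known. Counts of their genes that passed, in 1027B and elsewhere, describe the lists and are no independent support. All 3 genes had values in 3 mouse tables, Cym and Ctse had values in the fourth, and CTSE was the only one with values in human tables.

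The study holds 34 libraries of poly(A) RNA in 17 groups of 2, of which 22 libraries are from mouse lung adenocarcinoma cultures and 12 from human lung adenocarcinoma lines. Line 3154 was grown as organoids and carried, among its engineered alleles, p53frt, Rosa-FSF-CreERT2 and Hnf4aflox, so that 4-hydroxytamoxifen (4OHT), which activates the CreERT2 recombinase, deletes Hnf4a. The floxed Hnf4a allele was present in the ethanol controls too. In 1 experiment 3154 received 4OHT at 2 mM or ethanol for 2 days and RNA was taken 2 weeks later. In a second experiment, 3154 given ethanol or 4OHT received vehicle or the small-molecule inhibitor MRTX1133 at 3 nM for 48 hours. The dose and timing of 4OHT in that experiment are not reported here. Below, 48 hours names that experiment and is not given as a time since 4OHT. Organoid line 1027B carried, among its engineered alleles, p53frt, Rosa-FSF-CreERT2, Foxa1flox and Foxa2flox, with no deletion treatment named, and was given vehicle, the MEK inhibitor trametinib at 10 nM or MRTX1133 at 20 nM for 48 hours. The cell line 3311 has the same alleles as 1027B and was given vehicle or trametinib at 50 nM for 48 hours. Among the human lines, H358 and H1651 were given vehicle or trametinib at 20 nM for 48 hours, and H1651 with a doxycycline-driven HNF4A construct was kept for 7 days with or without doxycycline at 1 µg/mL. Each mouse model is 1 line, and nothing in the labels says that the 2 libraries of a group came from separate cultures, so p-values measure only the spread between these libraries, which may be technical.

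Aspartic proteases of this family are made as inactive precursors and cut other proteins in an acidic compartment. Chymosin, from Cym, is the milk-clotting enzyme of the newborn stomach, and the human counterpart of Cym is a pseudogene. Pepsinogen C, from Pgc, is the precursor of a digestive enzyme of gastric chief cells and is also made by alveolar type 2 cells of the lung. Cathepsin E, from Ctse, stays inside the cell in endosomes and is abundant in the surface epithelium of the stomach. HNF4α, the nuclear receptor encoded by Hnf4a, is a transcription factor of the gastrointestinal tract and liver, and is switched on in some lung adenocarcinomas that take up gastric features.

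In GRCm38 with GENCODE vM21 annotation, Cym (ENSMUSG00000046213) lies on chromosome 3 from 107211293 to 107221732 on the minus strand. Pgc (ENSMUSG00000023987) lies on chromosome 17 from 47726842 to 47734482 on the plus strand. Ctse (ENSMUSG00000004552) lies on chromosome 1 from 131638306 to 131675505 on the plus strand. Their exons cover 1236, 1388 and 3170 bases respectively, overlap no exon of another gene on either strand and share 0 sequences of 50 bases with other genes. The 250 bases before the start of Cym and of Pgc are printed because these 2 genes moved in opposite directions after Hnf4a deletion. They are RefSeq sequences of GRCm38.p6, 5′ to 3′ on the strand of the gene, ending at the base before the start. Capitals mark a TATA box (TATAAA), the short motif AGTCCA that forms part of the HNF4 motif CAAAGTCCA, and a GATA motif (GATAA, which reads TTATC on the other strand).
Cym, chr3:107221733-107221982, minus strand: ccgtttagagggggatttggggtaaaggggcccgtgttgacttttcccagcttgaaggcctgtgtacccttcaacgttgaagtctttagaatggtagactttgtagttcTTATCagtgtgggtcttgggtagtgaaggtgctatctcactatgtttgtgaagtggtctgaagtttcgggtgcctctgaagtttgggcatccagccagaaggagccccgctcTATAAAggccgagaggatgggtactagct
Pgc, chr17:47726592-47726841, plus strand: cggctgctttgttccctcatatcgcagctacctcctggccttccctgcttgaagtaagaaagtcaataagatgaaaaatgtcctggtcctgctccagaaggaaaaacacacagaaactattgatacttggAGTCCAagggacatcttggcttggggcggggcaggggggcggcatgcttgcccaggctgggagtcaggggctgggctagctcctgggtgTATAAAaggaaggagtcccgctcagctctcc
TATAAA stands 29 bases before the start of Cym and 31 bases before that of Pgc, and is found in 12.4% of the 32851 promoter windows of the same length. AGTCCA stands 120 bases before the start of Pgc and was not found in the Cym window, and 11.5% of all windows hold it. GATAA stands on the opposite strand 141 bases before the start of Cym and was not found in the Pgc window, and 22.6% of all windows hold it. Neither window held the longer CAAAGTCCA (0.384% of all windows), TGTTTAC for FOXA (3.17%), CACTTG for NKX2-1 (11.6%), TGANTCA for AP-1 (6.75%) or CCGGAA for ETS factors (12%), with both strands searched for every motif. Bases G and C make up 50% of the Cym window and 54.8% of the Pgc window, against a median of 52.4% over all windows. A match of letters is a description and does not show binding.

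Levels are given as CPM, counts scaled to a common library size, after trimmed-mean (TMM) scaling within a table. Changes are log2 values from edgeR's quasi-likelihood fit with an approximate standard error (SE), and p-values are adjusted by the Benjamini-Hochberg method over all genes tested in the table. A gene passed the test at an adjusted p under 0.05. Total counts per library were between 19692517 and 45284286. Tables were scaled separately, so tests were made only within a table and levels set side by side across tables carry no test. In the organoids the summed level of 4 epithelial markers (Epcam, Krt8, Krt18, Cdh1) was 5058 CPM or more in every library. Leukocyte, fibroblast and endothelial lists reached at most 8.13, 1.7 and 5.93 CPM. Only 2 of 6, 1 to 2 of 5 and 1 to 2 of 3 of their genes had values, so these sums cover part of each list. Nkx2-1, the lung lineage factor, had 189 to 422 CPM on average in every mouse group.

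Hnf4a itself fell in every comparison of 4OHT with ethanol. It had 315 to 427 CPM after ethanol and 53.5 to 68.0 CPM after 4OHT in the 2-week experiment, a log2 change of -2.61 (adjusted p = 0.00643). At 48 hours it had 221 to 230 CPM with ethanol and vehicle and 49.4 to 50.4 CPM with 4OHT and vehicle (log2 change -2.18, adjusted p = 0.000141). With MRTX1133 the levels were 180 to 184 CPM and 25.3 to 29.8 CPM (log2 change -2.72, adjusted p = 7.8e-05). The labels do not say which exons are deleted, so the remaining reads do not measure intact transcript.

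**Figure D1:**
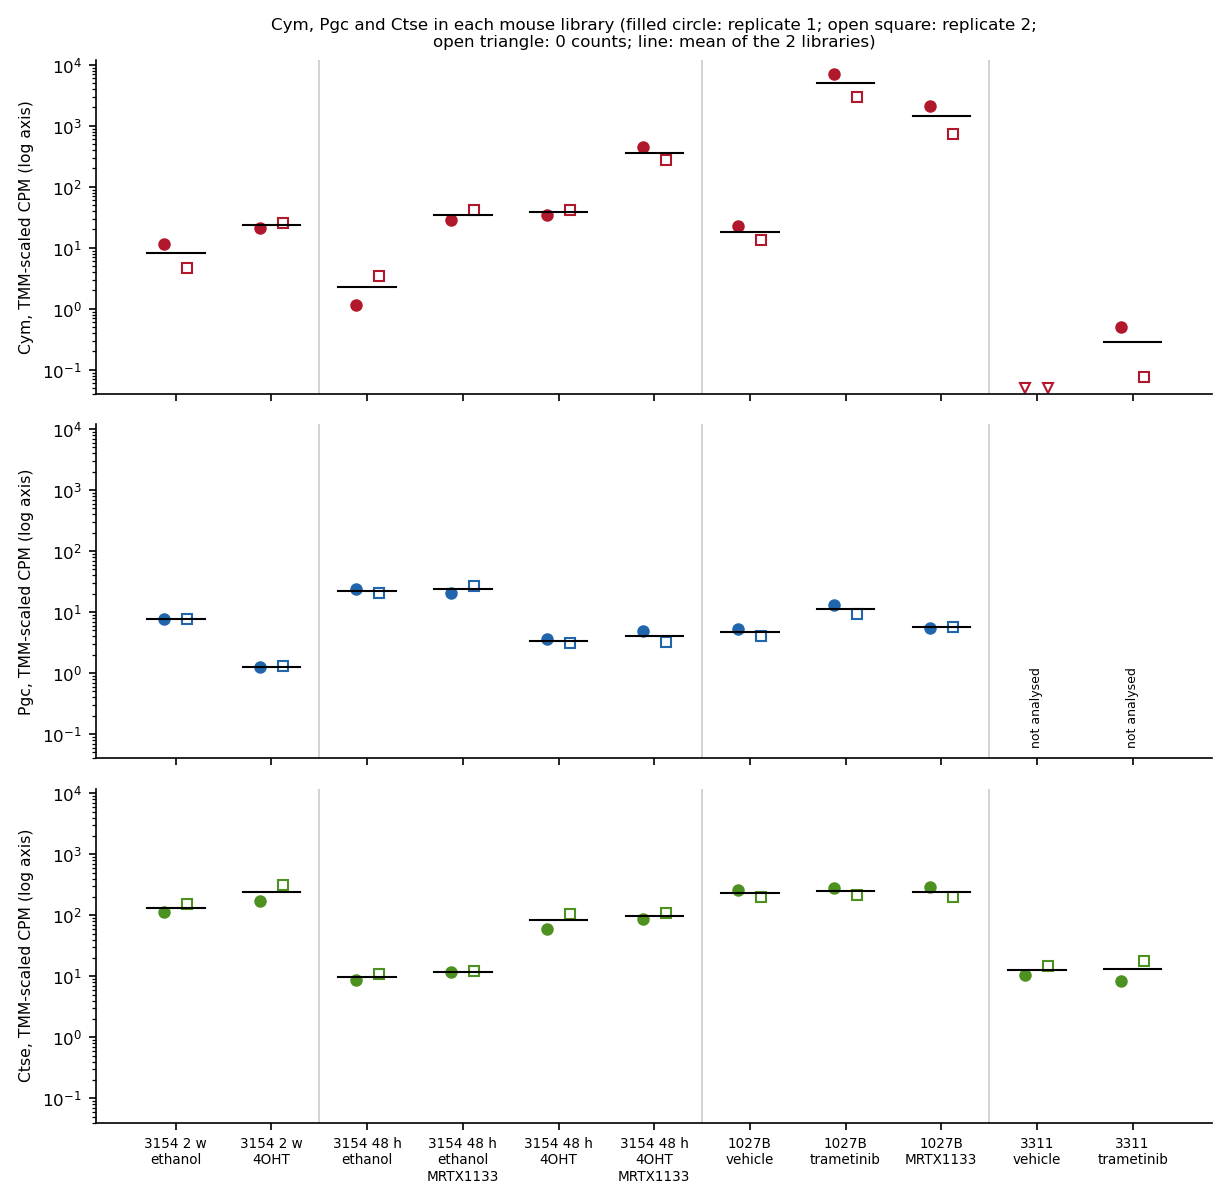
TMM-scaled CPM (log axis) of Cym, Pgc and Ctse in each of the 22 mouse libraries, grouped by line, experiment and treatment, with lines at the mean of the 2 libraries of a group. Cym ranges from 0 counts in 3311 with vehicle to 7158 CPM in 1027B with trametinib, Pgc stays between 1.25 and 26.9 CPM, and Ctse between 8.5 and 312 CPM.

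Loss of Hnf4a was accompanied by higher Cym, lower Pgc and higher Ctse in the 48-hour experiment. In the 2-week experiment the same 3 directions were seen, with the fall of Pgc alone passing edgeR's unpaired test. With the replicate number as a block, Cym and Ctse passed there too. Cym, encoding chymosin, had 1.14 and 3.40 CPM with ethanol and vehicle and 33.9 and 41.9 CPM with 4OHT and vehicle. Both 4OHT libraries lay far above both ethanol libraries. The ratio of the means was 16.7 and the log2 change was 4.06 (SE 0.47, adjusted p = 0.000997). It was 3.47 without ethanol and vehicle replicate 1 and 5.05 without replicate 2 of that group. In the presence of MRTX1133, Cym had 28.1 and 41.3 CPM with ethanol and 453 and 275 CPM with 4OHT. Again the groups did not overlap, with a ratio of 10.5 and a log2 change of 3.39 (SE 0.42, adjusted p = 0.00124).

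With 2 weeks between treatment and RNA, Cym had 11.6 and 4.67 CPM after ethanol and 21.1 and 25.3 CPM after 4OHT. The groups did not overlap, but the ethanol libraries lay more than a factor of 2 apart. The log2 change of 1.5 (SE 0.42, 95% interval 0.46 to 2.54) had an adjusted p of 0.082 by edgeR and did not pass the test, but DESeq2 gave an adjusted p of 0.00355. That result rests on the ethanol libraries: without ethanol replicate 1 or without ethanol replicate 2 it passed, with log2 changes between 1.00 and 2.29 over the 4 fits that left out 1 library.

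Pgc, encoding pepsinogen C, had 7.81 and 7.77 CPM after ethanol and 1.25 and 1.31 CPM after 4OHT in the 2-week experiment. Both 4OHT libraries lay far below both ethanol libraries, with a ratio of the means of 0.164 and a log2 change of -2.60 (SE 0.27, adjusted p = 0.0097). At 48 hours Pgc had 23.5 and 20.5 CPM with ethanol and vehicle against 3.60 and 3.17 CPM with 4OHT and vehicle. The replicates were close together in both groups and the groups did not overlap, with a ratio of 0.154 and a log2 change of -2.70 (SE 0.24, adjusted p = 0.000415). With MRTX1133 present, Pgc had 20.8 and 26.9 CPM with ethanol and 4.97 and 3.23 CPM with 4OHT. The ratio was 0.172 and the log2 change -2.55 (SE 0.24, adjusted p = 0.000427). In bulk RNA, fewer cells that make a transcript and less of it per cell cannot be told apart, here and in every result that follows.

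Ctse, encoding cathepsin E, had 8.88 and 10.8 CPM with ethanol and vehicle at 48 hours and 60.9 and 107 CPM with 4OHT and vehicle. Every 4OHT library exceeded every ethanol library, with a ratio of 8.53 and a log2 change of 3.09 (SE 0.28, adjusted p = 0.000438). With MRTX1133 the values were 11.9 and 12.1 CPM against 86.1 and 111 CPM. The ratio was 8.19 and the log2 change 3.03 (SE 0.28, adjusted p = 0.000421). In the 2-week experiment Ctse had 112 and 154 CPM after ethanol and 175 and 312 CPM after 4OHT, which did not overlap. The log2 change of 0.87 (SE 0.30) had an adjusted p of 0.131 by edgeR and did not pass the test. It passed with DESeq2 (adjusted p = 0.0356) and when ethanol replicate 2 was left out (range of log2 changes 0.39 to 1.23).

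The 3 genes read against their background as follows. After 2 weeks 1 of the 3 passed, in the lower direction, where 9.81% of all tested genes passed (4.03% higher and 5.78% lower). At 48 hours with vehicle, 3 of the 3 passed, 2 higher and 1 lower, where 31% of all tested genes passed (15.3% higher and 15.7% lower). At 48 hours with MRTX1133, 3 of the 3 passed in the same directions, where 27.7% passed (13.2% higher and 14.5% lower). These 3 comparisons use 2 separate experiments, and the 48-hour comparisons use different libraries of 1 experiment.

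The ethanol controls of the 2 experiments themselves differed in level. Ctse stood at 112 and 154 CPM in the 2-week controls against 8.88 and 10.8 CPM in the 48-hour controls with vehicle. Pgc went the other way, with about 7.8 CPM in the 2-week controls and 20.5 to 23.5 CPM in the 48-hour controls. Cym averaged 8.12 and 2.27 CPM. These levels come from separately scaled tables and their difference was not tested.

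**Figure D2:**
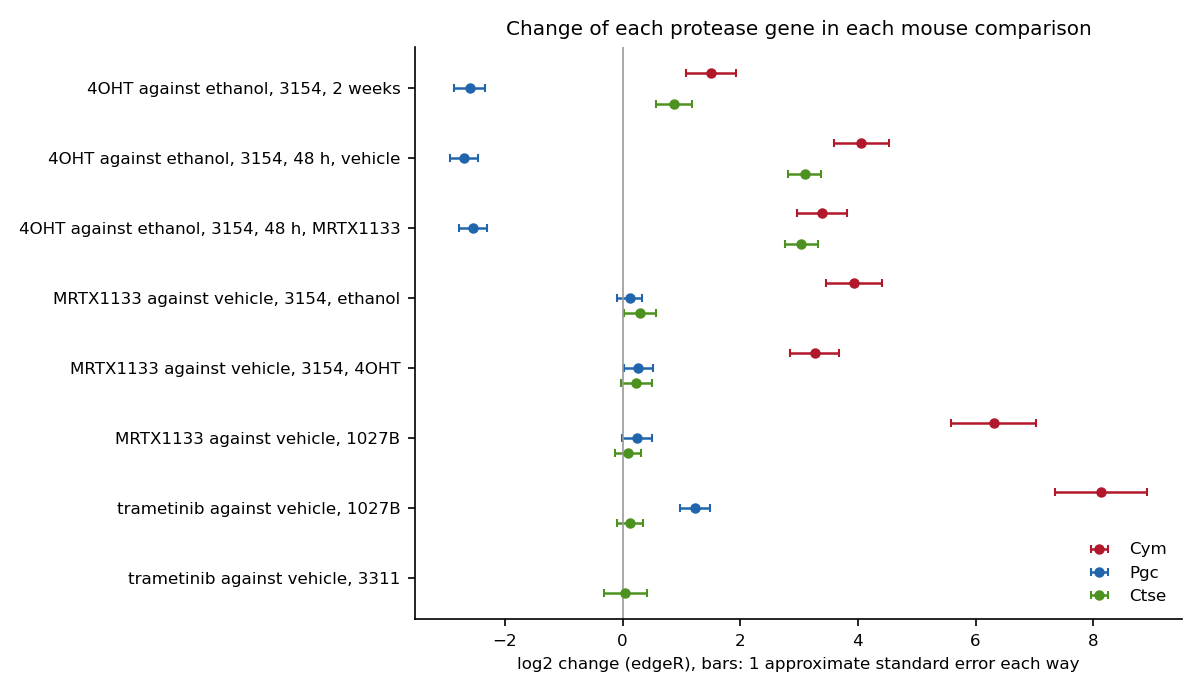
The log2 change of Cym, Pgc and Ctse (edgeR) in 8 mouse comparisons, with bars of 1 approximate SE each way. Pgc lies between -2.70 and -2.55 in the 3 comparisons of 4OHT with ethanol and close to 0 with MRTX1133, while Cym is above 0 wherever it was fitted and reaches 8.13 with trametinib in 1027B.

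With MRTX1133, Cym rose in 3154 organoids after ethanol and after 4OHT, and no change of Pgc or Ctse passed the test. In ethanol-treated organoids Cym went from 1.14 and 3.40 CPM with vehicle to 28.1 and 41.3 CPM with MRTX1133. This comparison and the next reuse the 8 libraries of the 48-hour experiment described above. The groups did not overlap, and the ratio of 15.3 corresponded to a log2 change of 3.93 (SE 0.47, adjusted p = 0.0245). Only 0.349% of all tested genes passed in that comparison (0.317% higher and 0.0323% lower), and Cym was the 1 of the 3 genes that did. The call was lost when either MRTX1133 library was left out. Over the 4 fits that left out 1 library of either group, the log2 change was 3.35 to 4.92. The call was also lost when only the 2 groups compared were fitted (log2 change 3.92, adjusted p = 0.224).

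After 4OHT, Cym went from 33.9 and 41.9 CPM with vehicle to 453 and 275 CPM with MRTX1133. The lowest MRTX1133 library was well above the highest vehicle library, with a ratio of 9.60 and a log2 change of 3.26 (SE 0.42, adjusted p = 0.0174). Of all tested genes, 4.64% passed (2.1% higher and 2.54% lower), and Cym was again the 1 of the 3. Leaving out any 1 of the 4 libraries ended this call, with adjusted p between 0.0537 and 0.217 and log2 changes between 2.86 and 3.58.

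Pgc had 23.5 and 20.5 CPM with vehicle and 20.8 and 26.9 CPM with MRTX1133 in ethanol-treated organoids, which overlap. The log2 change was 0.12 (95% interval -0.38 to 0.62, adjusted p = 0.89). After 4OHT it had 3.60 and 3.17 CPM with vehicle and 4.97 and 3.23 CPM with MRTX1133, a log2 change of 0.27 (95% interval -0.31 to 0.84, adjusted p = 0.593). Ctse had 8.88 and 10.8 CPM against 11.9 and 12.1 CPM in ethanol-treated organoids. Those groups did not overlap, but the log2 change of 0.29 (95% interval -0.34 to 0.92) had an adjusted p of 0.746. After 4OHT, Ctse had 60.9 and 107 CPM against 86.1 and 111 CPM, which overlap (log2 change 0.23, 95% interval -0.36 to 0.83, adjusted p = 0.655). The intervals thus leave room for changes of up to 0.92 on the log2 scale.

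**Figure D3:**
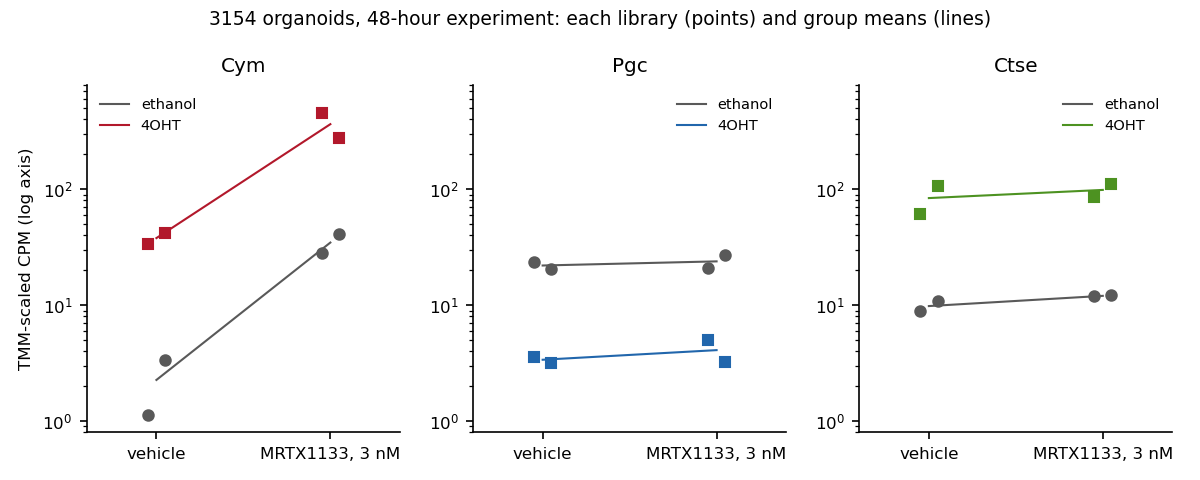
Level of Cym, Pgc and Ctse (TMM-scaled CPM, log axis) in each 3154 library of the 48-hour experiment with vehicle or 3 nM MRTX1133, after ethanol (grey circles) or 4OHT (colored squares), with lines joining group means. The lines of Cym rise with MRTX1133 after ethanol and after 4OHT, whereas those of Pgc and Ctse are nearly flat and set apart by 4OHT.

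The design allows a direct test of whether the response to MRTX1133 differed with and without Hnf4a. Against ethanol with vehicle, Cym was 16.7 times higher with 4OHT alone, 15.3 times with MRTX1133 alone and 160.5 times with both, where the product of the single ratios is 256. The interaction of the 2 treatments was -0.67 on the log2 scale for Cym (SE 0.59, 95% interval -2.04 to 0.70, adjusted p = 0.907), and -1.66 to -0.086 with 1 library left out. For Pgc the ratios were 0.154, 1.09 and 0.186, with an interaction of 0.15 (SE 0.33, 95% interval -0.61 to 0.91, adjusted p = 0.976). Ctse had ratios of 8.53, 1.22 and 10.0, with an interaction of -0.06 (SE 0.37, 95% interval -0.92 to 0.80, adjusted p = 0.997). No difference in response was detectable for the 3 genes, and the interval for Cym spans more than 2 units. Across all genes the interaction had 0 calls by edgeR (0% of 15458 tested) and 36 by DESeq2, and its unadjusted p was under 0.05 for 1150 genes.

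In 1027B, where all changes of the 3 genes are a description, Cym stood apart from Pgc and Ctse in its range. Cym had 22.6 and 13.4 CPM with vehicle, 7158 and 2960 CPM with trametinib and 2116 and 743 CPM with MRTX1133. No 2 of these groups overlapped, and replicate 1 was the higher library in each of them, by factors of 1.69, 2.42 and 2.85. The ratio of the means to vehicle was 281 with trametinib (log2 change 8.13, SE 0.78) and 79.6 with MRTX1133 (log2 change 6.31, SE 0.72). With 1 library left out the log2 changes were 7.36 to 8.63 and 5.37 to 6.89. Within libraries of the same number the ratio to vehicle was 317 and 221 with trametinib and 93.8 and 55.6 with MRTX1133. MRTX1133 against trametinib gave a ratio of 0.283 (log2 change -1.82, SE 0.59), and the log2 change was -2.76 to -1.05 with 1 library left out. The doses, 10 nM of trametinib and 20 nM of MRTX1133, differ and the agents act on different proteins, so this is the contrast of 2 treatments as given.

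Ranked by CPM among the 16553 genes of the table, Cym stood at place 3 in trametinib replicate 1 and place 13 in replicate 2, and at places 23 and 128 with MRTX1133. With vehicle it stood at places 7210 and 8590. It took 160795 counts or 0.742% of the library in trametinib replicate 1 (exact 95% binomial interval 0.738% to 0.745%) and 63466 counts or 0.3% in replicate 2 (0.298% to 0.302%). With vehicle the shares were 0.00219% and 0.00125%. These intervals cover counting error only, and the gap between the replicates is far wider than the intervals.

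Pgc in 1027B had 5.37 and 4.06 CPM with vehicle and 13.0 and 9.23 CPM with trametinib. Both trametinib libraries were above both vehicle libraries, with a ratio of 2.36 (log2 change 1.24, SE 0.25). MRTX1133 gave 5.57 and 5.68 CPM, just above the higher vehicle library, with a ratio of 1.19 (log2 change 0.25, SE 0.26). MRTX1133 against trametinib was 0.505 for Pgc (log2 change -0.99, SE 0.25). Ctse had 262 and 198 CPM with vehicle, 279 and 220 CPM with trametinib and 288 and 199 CPM with MRTX1133, and all 3 groups overlapped. Its log2 change was 0.12 (SE 0.22) with trametinib, 0.08 (SE 0.22) with MRTX1133 and -0.03 (SE 0.22) between the 2 agents. Of all genes tested in 1027B, 26.7% passed with trametinib (13.5% higher and 13.2% lower) and 6.27% with MRTX1133 (3.01% higher and 3.26% lower), 3880 and 913 genes. With the replicate number as a block the counts were 6540 and 3515 genes. Hnf4a, which 1027B carries without a floxed allele, had 446 to 471 CPM with vehicle, 200 to 254 CPM with trametinib and 242 to 298 CPM with MRTX1133.

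In 3311, grown as a cell line, Cym had 0 counts in both vehicle libraries, where a count of 0 allows up to 0.111 and 0.119 CPM, and 14 and 2 counts with trametinib. These are 0.502 and 0.0761 CPM, and the second value is under the limit that a count of 0 allows. Cym was too low to be tested there and no fold is given. Ctse had 10.6 and 14.9 CPM with vehicle and 8.5 and 17.9 CPM with trametinib, so that the trametinib libraries lay on either side of the vehicle libraries. Its log2 change was 0.05 (SE 0.36, 95% interval -0.81 to 0.91, adjusted p = 0.93), so that it did not pass in a comparison where 39% of all tested genes did (19.4% higher and 19.6% lower). Pgc in 3311 was not analysed here.

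Human CTSE was at the limit of detection. In H1651 it had 0 and 2 counts with vehicle and 0 and 0 counts with trametinib, and in H358 it had 7 and 2 counts with vehicle and 3 and 1 counts with trametinib. A count of 0 allows up to 0.0660 to 0.0842 CPM in those H1651 libraries. Those values allow no comparison, and none of the 3 genes was analysed here in the H1651 libraries with and without doxycycline.

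Ordering the mouse groups by level gives a different sequence for each gene. Cym was highest in 1027B with trametinib, then 1027B with MRTX1133, then 3154 with 4OHT and MRTX1133, and these 3 groups did not overlap with each other or with the next. The 3154 groups with 4OHT and vehicle and with ethanol and MRTX1133 overlapped, at means of 37.9 and 34.7 CPM. The 2-week 4OHT group and the 1027B vehicle group overlapped at 23.2 and 18.0 CPM, and the 2-week ethanol group, the 48-hour ethanol and vehicle group and both 3311 groups followed without overlap. Pgc was highest in the 2 ethanol groups of the 48-hour experiment, which overlapped at 23.9 and 22.0 CPM, and lowest in the 2-week 4OHT group at 1.28 CPM. Between them stood 1027B with trametinib at 11.1 CPM, 2-week ethanol at 7.79 CPM, and then 1027B with MRTX1133 at 5.63 CPM, which did not overlap its next neighbour, 1027B with vehicle at 4.72 CPM. The 1027B vehicle group overlapped 3154 with 4OHT and MRTX1133 (4.10 CPM), which in turn overlapped 4OHT with vehicle (3.39 CPM). Ctse was highest in the 3 groups of 1027B and the 2-week 4OHT group, at 230 to 249 CPM with overlap between each and the next. Below them came 2-week ethanol at 133 CPM and the overlapping 48-hour 4OHT groups at 98.7 and 83.9 CPM. The 2 groups of 3311 and 48-hour ethanol with MRTX1133 followed at 13.2, 12.8 and 12 CPM, each overlapping the next, and 48-hour ethanol with vehicle was lowest at 9.83 CPM. Replicates of a group differed by a factor of 1.2 to 2.99 for Cym outside 3311, 1.01 to 1.54 for Pgc and 1.02 to 2.10 for Ctse.

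Scaling each level by exon length allows the 3 genes to be compared with each other. In 48-hour ethanol with vehicle, Pgc made up 76.3% of the summed CPM per kilobase of the 3 genes, Ctse 14.9% and Cym 8.79%. With 4OHT alone Cym made up 52.1%, Ctse 43.6% and Pgc 4.27%, and with MRTX1133 alone Cym made up 56.9%, Pgc 35.2% and Ctse 7.92%. With both treatments the share of Cym was 88.9%, that of Ctse 10.2% and that of Pgc 0.898%. In 1027B, Ctse led with 80.4% under vehicle, against 15.8% for Cym and 3.77% for Pgc. Cym led with 97.6% under trametinib and 92.4% under MRTX1133, where Pgc held 0.214% and 0.417%. Ctse also led in the 2-week experiment, with 77.0% after ethanol and 78.8% after 4OHT, while Pgc went from 10.4% to 1.01% and Cym from 12.6% to 20.2%. The order of the 3 genes was the same in both libraries of every group but 2-week ethanol, where Cym and Pgc changed places.

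**Figure D4:**
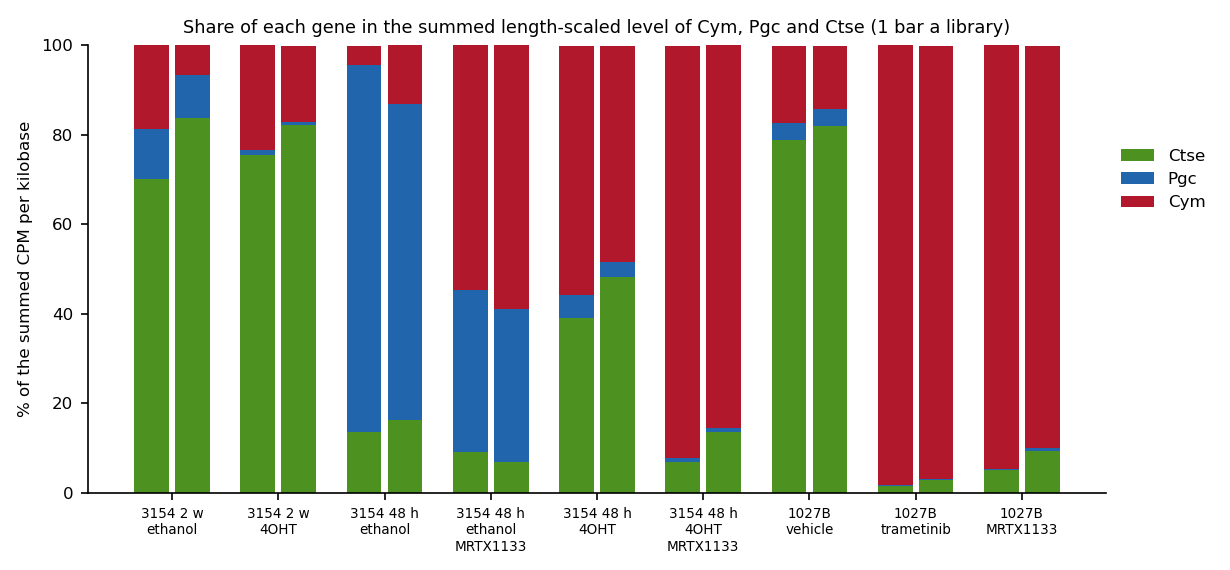
Share of Cym, Pgc and Ctse in their summed CPM per kilobase of exon, 1 bar for each 3154 and 1027B library. Pgc leads in 48-hour ethanol with vehicle (mean 76.3%), Ctse in both 2-week groups and in 1027B with vehicle (mean 80.4%), and Cym in every group given MRTX1133 or trametinib and, with 52.1%, in 48-hour 4OHT with vehicle.

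Other aspartic proteases were taken from a list of 8 mouse genes. This list and those below were chosen with earlier results of these data known, so their counts are descriptions. Pga5, encoding pepsinogen A, was higher after 4OHT at 48 hours and also in 3311 with trametinib. Its levels were 0.126 and 0.504 CPM with ethanol and vehicle, and 2.88 and 4.73 CPM with 4OHT and vehicle, a log2 change of 3.57 (adjusted p = 0.0079). With MRTX1133 it had 0.459 and 1.37 CPM after ethanol and 4.57 and 9.16 CPM after 4OHT (log2 change 2.92, adjusted p = 0.0096). Pga5 with MRTX1133 against vehicle had log2 changes of 1.51 after ethanol (adjusted p = 0.523) and 0.86 after 4OHT (adjusted p = 0.401). In 1027B it had 0 counts in both vehicle libraries, 1.54 to 1.69 CPM with trametinib and 0.0371 to 0.449 CPM with MRTX1133. In 3311 it had 0 and 0.199 CPM with vehicle and 3.31 to 5.56 CPM with trametinib (adjusted p = 0.00329). It was near 0.21 CPM after ethanol and 0.28 CPM after 4OHT in the 2-week experiment, too low to be tested. So Pgc fell and Pga5, the other pepsinogen listed, rose after 4OHT at 48 hours.

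At 48 hours with vehicle 5 of the 6 other aspartic proteases tested passed, 4 higher and 1 lower, where 31% of all tested genes passed, with a median log2 change of 0.88 against 0.01 over all genes. The other 3 that rose were Napsa (napsin A of alveolar type 2 cells, log2 change 1.00, adjusted p = 0.0137), Bace1 (0.75, adjusted p = 0.0367) and Bace2 (1.11, adjusted p = 0.0028), the last pair encoding β-secretases. Ctsd, encoding the lysosomal protease cathepsin D, fell by 0.58 (adjusted p = 0.008). With MRTX1133, 3 of 6 passed after 4OHT, all higher (Pga5, Napsa and Bace2), where 27.7% of all tested genes passed, with a median of 0.77 against -0.01. In the 2-week experiment Bace1 alone of 5 tested passed (0.85, adjusted p = 0.0328), where 9.81% of all tested genes did. MRTX1133 in 3154 gave 0 of 6 by edgeR and by DESeq2 in ethanol, with 0 at an unadjusted p under 0.05, where 0.349% of all tested genes passed. After 4OHT it gave 0 of 6 by edgeR, with 2 at an unadjusted p under 0.05 (Ctsd and Asprv1) and 1 by DESeq2 (Asprv1), where 4.64% of all tested genes passed by edgeR. In 3311, 2 of 4 passed, where 39% of all tested genes did, Pga5 higher and Bace2 lower (-0.80, adjusted p = 0.0334). In 1027B Pga5 and Bace2 of 6 were higher with trametinib, where 13.5% of all tested genes were. With the replicate block Ctsd was higher too, and Napsa, Bace1 and Asprv1 were lower, where 6540 of 14555 tested genes passed in either direction. In H358, CTSD, NAPSA, BACE1 and BACE2 were higher with trametinib, 4 of 5 tested, where 46.8% of all tested genes passed (23.5% higher and 23.2% lower). Asprv1, the skin aspartic protease, passed by edgeR in no mouse comparison without that block.

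Napsin A and cathepsin H process the precursor of surfactant protein B in the lung, so their genes were read with that of the substrate, Sftpb. After 4OHT at 48 hours with vehicle 3 of 3 were higher, where 15.3% of all tested genes were, with Sftpb at 0.62 (adjusted p = 0.0063) and Ctsh at 0.58 (adjusted p = 0.0335) on the log2 scale. With MRTX1133, Napsa and Ctsh (0.79, adjusted p = 0.0114) were higher after 4OHT, and in the 2-week experiment Ctsh alone was (0.61, adjusted p = 0.0393), where 13.2% and 4.03% of all tested genes were higher. Sftpb fell by 0.76 with MRTX1133 after 4OHT (adjusted p = 0.0198). In 3311 Sftpb went from a mean of 4573 to 323 CPM with trametinib, a log2 change of -3.82 (adjusted p = 0.000392), while Ctsh rose by 0.82 (adjusted p = 0.0077). In 1027B Sftpb had a log2 change of -2.99 with trametinib, in the libraries with the 281-fold difference of Cym. With MRTX1133, 0 of these 3 genes passed in 1027B by edgeR or DESeq2, with 2 at an unadjusted p under 0.05, where 6.27% of all tested genes passed by edgeR. With the replicate block Napsa and Sftpb were lower with either agent, where 6540 (trametinib) and 3515 (MRTX1133) of 14555 tested genes passed in either direction.

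Among the 8 genes of chief and neck cells, the cells that make pepsinogens in the stomach, Cblif was higher with MRTX1133 in 3154 and passed in neither 48-hour comparison of 4OHT with ethanol. Cblif encodes gastric intrinsic factor, the carrier of vitamin B12. It went from a mean of 0.063 to 2.35 CPM with MRTX1133 in ethanol-treated 3154 (log2 change 5.12, adjusted p = 0.0245) and from 0.0982 to 1.98 CPM after 4OHT (4.20, adjusted p = 0.0177). Both vehicle means lie under what a count of 0 allows (0.126 CPM with ethanol, 0.114 and 0.134 CPM after 4OHT), so the size of these changes is uncertain. In ethanol-treated 3154 no gene passed when only the groups compared were fitted. In 1027B it had 0.251 CPM with vehicle, 16.2 CPM with trametinib and 3.89 CPM with MRTX1133. With 4OHT against ethanol its log2 changes were 0.65 with vehicle (adjusted p = 0.653) and -0.26 with MRTX1133 (adjusted p = 0.639). After 2 weeks 2 of the 2 genes tested were higher with 4OHT, against 4.03% of all tested genes, Tff2, a trefoil factor of neck cells, by 2.42 (adjusted p = 0.0382) and the water channel gene Aqp5 by 0.60 (adjusted p = 0.0479). At 48 hours 1 of 4 was higher with 4OHT and vehicle (Pga5) and 2 of 4 with MRTX1133 (Pga5, and Aqp5 by 0.51, adjusted p = 0.0144), against 15.3% and 13.2% of all tested genes. In 1027B, Cblif and Pga5 of 4 were higher and Aqp5 lower with trametinib, and Cblif was higher and Aqp5 lower with MRTX1133, where 26.7% and 6.27% of all tested genes passed.

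Genes of gastric pit cells, where cathepsin E is abundant, came from a list of 8. After 4OHT, 5 of 8 were higher and Vsig1 lower at 48 hours with vehicle and also with MRTX1133, against 15.3% and 13.2% of all tested genes that were higher. The surface mucin Muc5ac led both, with log2 changes of 5.12 and 3.86. After 2 weeks 3 of 8 were higher, against 4.03% of all tested genes, namely Muc5ac (2.58, adjusted p = 0.0208), Tff1 (2.13, adjusted p = 0.0223) and Gkn2 (1.15, adjusted p = 0.0246). With MRTX1133 in 3154, 0 of 8 passed by edgeR in ethanol (4 at an unadjusted p under 0.05, and Tff1 by DESeq2), and Tff1 alone was lower after 4OHT (-1.32, adjusted p = 0.0451), where 0.349% and 4.64% of all tested genes passed. In 1027B 6 of 8 were lower with trametinib (Gkn2 at -4.88, Gkn1 at -3.93 and Tff1 at -3.87) and Psca was higher, and 5 of 8 were lower with MRTX1133, against 13.2% and 3.26% of all tested genes that were lower. Under the replicate block 7 of 8 were lower in each comparison, where 6540 and 3515 of 14555 tested genes passed in either direction. Ctse in those libraries had log2 changes of 0.12 and 0.08.

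Cathepsin E is an aspartic protease, whereas most other cathepsins are cysteine proteases, and 12 of those others were listed. After 4OHT at 48 hours 2 of 9 were higher and 3 lower with vehicle, and 4 of 9 were higher with MRTX1133, where 15.3% and 13.2% of all tested genes were higher and 15.7% lower with vehicle. Ctsl, encoding the lysosomal cathepsin L, rose by 0.83 (adjusted p = 0.00508) and 1.24 (adjusted p = 0.00109) where Ctse rose by 3.09 and 3.03. In the 2-week experiment 2 of 9 were higher and Ctsf lower (-3.10, adjusted p = 0.041), where 9.81% of all tested genes passed. Among the 2 that were higher, Ctsw had 0 counts after ethanol and 0.97 CPM on average after 4OHT. MRTX1133 after 4OHT gave 2 of 9 higher, where 2.1% of all tested genes were, Ctsc (0.73, adjusted p = 0.0198) and Ctsa (0.62, adjusted p = 0.0283). Trametinib in 3311 gave 4 of 9 higher, where 19.4% of all tested genes were, and Ctsc lower (-1.98, adjusted p = 0.00038), with Ctse at 0.05.

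Foregut transcription factors were read beside the 3 proteases. Sox21 was higher at 48 hours, by 1.31 with vehicle (adjusted p = 0.00329) and 1.14 with MRTX1133 (adjusted p = 0.00572). In all, 1 of 13 factors was higher and 3 lower in the 2-week experiment, 4 higher and 3 lower at 48 hours with vehicle, and 3 higher and 5 lower with MRTX1133. Of all tested genes 9.81%, 31% and 27.7% passed in those comparisons. Hnf4a itself was lower with MRTX1133 after 4OHT (-0.86, adjusted p = 0.0185), in libraries where Pgc had a log2 change of 0.27. In 3311, 6 of 13 were higher and 2 lower with trametinib, where 39% of all tested genes passed, led by Hnf4g (2.53, adjusted p = 0.00535). In 1027B, Pdx1, a homeobox factor of the pancreas and duodenum, had log2 changes of -3.00 with trametinib and -3.08 with MRTX1133. Of 5 parietal and endocrine cell genes only Ghrl, encoding ghrelin, was tested at 48 hours, and it was higher after 4OHT by 3.36 with vehicle (adjusted p = 0.0183) and 1.92 with MRTX1133 (adjusted p = 0.0248), at 1.2 CPM or less on average.

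**Figure D5:**
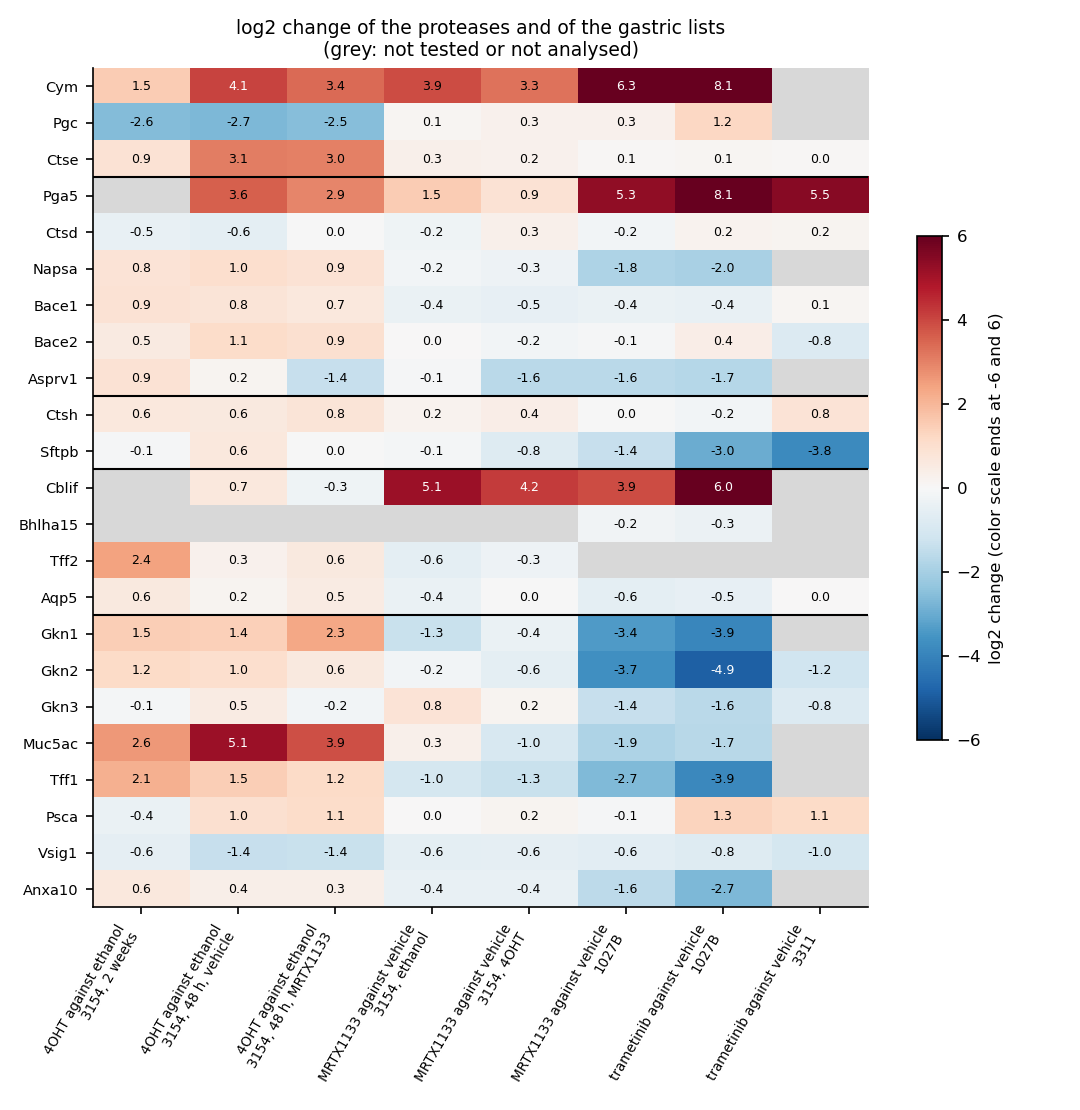
The log2 change (edgeR) of the 3 proteases, the other aspartic proteases, the genes of surfactant protein B processing, and gastric chief or neck and pit cell genes in 8 mouse comparisons, with red for higher, blue for lower and grey for not tested or not analysed. The values for Pga5 in 1027B are fitted against a group at 0 counts and are no measure of fold. Ctse and the pit cell gene Muc5ac are both red in the 48-hour comparisons of 4OHT with ethanol (3.09 and 5.12 with vehicle), while in 1027B with trametinib Ctse is near 0 and Muc5ac at -1.7.

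Patterns across libraries were compared after centring log2 CPM within each table. The values of r describe libraries that share experiments and treatments, and carry no p. Over the 18 libraries of 3 tables, the 5 genes most like Cym of 13199 were Shh (r = 0.981), Rcbtb2 (0.978), Ifit2 (0.970), Mmp11 (0.968) and Scnn1b (0.968). Shh encodes the secreted ligand Sonic hedgehog. Those most like Pgc were Ddc (0.964), Stx7 (0.963), Akr1c19 (0.963), Gm5485 (0.960) and Cyp2c65 (0.957). Over the 22 libraries of 4 tables, those most like Ctse of 12597 were Anxa8 (0.942), Sgk1 (0.936), Ets2 (0.933), Gsto2 (0.923) and Tmc6 (0.922). Between the 3 genes, r was -0.243 for Cym with Pgc, 0.540 for Cym with Ctse and -0.830 for Pgc with Ctse. With Hnf4a, r was 0.833 for Pgc, -0.672 for Cym and -0.782 for Ctse.

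The summed level of ciliated cell markers was low and was ordered partly as Cym was. Of 4 listed, Foxj1 and Tppp3 had values in 3154, and their summed level at 48 hours was 0.210 to 0.545 CPM with ethanol and vehicle, 1.49 to 1.68 CPM with MRTX1133 alone, 0.872 to 1.83 CPM with 4OHT alone and 2.98 to 3.39 CPM with both. In 1027B, where Tppp3 alone had values, the level was 0.533 to 0.758 CPM with vehicle, 2.09 to 3.26 CPM with trametinib and 1.41 to 1.64 CPM with MRTX1133. In 3311, where Cym had at most 14 counts, the list went from 0.595 to 1.23 CPM with vehicle to 2.28 to 3.91 CPM with trametinib. Tppp3 passed by edgeR with 4OHT after 2 weeks (log2 change 1.84, adjusted p = 0.0384), with 4OHT and vehicle at 48 hours (2.31, adjusted p = 0.016), with trametinib in 1027B and with trametinib in 3311 (1.88, adjusted p = 0.0303). With MRTX1133 in 3154 it did not pass by edgeR after ethanol (2.91, adjusted p = 0.079) or after 4OHT (1.58, adjusted p = 0.0622), but passed with DESeq2 in both. By edgeR it did not pass with 4OHT in the presence of MRTX1133 (0.98, adjusted p = 0.0838) or, without the replicate block, with MRTX1133 in 1027B. Foxj1, the transcription factor of ciliated cells, passed in none of the 3154 comparisons, the mouse comparisons in which it was tested. The part of ciliated cells in the result for Cym was not tested.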

How the data were processed

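The deposited tables hold raw counts per gene made by the authors. Per the labels, libraries were poly(A) selected and strand-directional. The submitters' processing notes name cutadapt 3.5, STAR 2.7.6a, featureCounts 1.6.3 and the builds mm10, mm39 and hg38, with no role given; the rule that limits each table to its listed genes is not given in the sources used here. Each of the 7 tables was fitted with edgeR 4.0.16 (R 4.3.3; filterByExpr, TMM factors, quasi-likelihood test) with all its groups in 1 fit, and p-values were adjusted by Benjamini-Hochberg over its tested genes. The fit was tested on simulated data. SEs are the log2 change over the square root of F, and intervals use the t quantile. The members and lists were chosen with earlier results of these data known. Named genes are the 3 members, every other aspartic protease and gene of surfactant protein B processing, up to 3 passing genes with the largest change from each further list, Hnf4a, Nkx2-1 and the 5 genes most similar to each member. Libraries of the same number deviated together in 1027B (r = 0.243, 0.372 and 0.414 between groups), which pairs them there. In the 2-week experiment r was 0.427 and in 3311 it was 0.126, for the only pair of groups in each. The main fits were unpaired in every table. In 3154 at 48 hours r was -0.251 to 0.549 over the 6 pairs of groups, and since not every r was above 0.1 the libraries were not taken as paired (r was 0.549 between vehicle and MRTX1133 after ethanol). Alternatives were other scaling factors, filters, DESeq2 1.42.0, the replicate block, fits of only the groups compared, and leaving out each library. Promoter letters come from RefSeq (GRCm38.p6), with 2 of the 3 members matched. Some items of the labels and lists are not reported here.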

Additional observations from a re-analysis of the deposited data

Results flagged for a closer look

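None of the 3 proteases met the criteria for a closer look, but 5 other listed genes had ratios of opposite sign under the same agent, with the treated libraries all above the controls in one setting and all below them in another. Several of these ratios are small and did not pass the edgeR test on their own, among them Bace1 in 3311, Ctsh in 1027B and Ctsd in 3154. All values are differences between log2 ratios of group means, and except for Ctsd the differences were not tested. With trametinib, napsin A RNA had a log2 ratio of 0.89 in H358 against -1.96 in 1027B, a difference of 2.85. It was -1.64 in 3311, a difference of 2.54 from H358, at only 0.402 and 0.129 CPM in 3311. Bace1 had a log2 ratio of 0.14 in 3311 and 0.53 in H358 against -0.43 in 1027B, differences of 0.57 and 0.96. Bace2 had 0.41 in 1027B against -0.80 in 3311, a difference of 1.21. Ctsh, encoding cathepsin H, had 0.82 in 3311 and 2.00 in H358 against -0.16 in 1027B, differences of 0.98 and 2.16. Trametinib doses differed between these lines. With MRTX1133 in 3154, Ctsd had a log2 ratio of 0.30 after 4OHT and -0.24 after ethanol, a difference of 0.55. The edgeR interaction test of that difference gave an adjusted p of 0.572.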

How the results depend on the processing

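Of 189 values under alternatives that kept every library, 183 counted as the same. For tested comparisons this meant the same direction and the same side of the threshold. For 1027B it meant a shift smaller than the spread between replicates, whatever the sign. In the 2-week experiment Cym passed with the replicate block (1.59, adjusted p = 0.0135) and with DESeq2 (1.504, adjusted p = 0.00355), as did Ctse (0.83, adjusted p = 0.00291, and 0.86, adjusted p = 0.0356). Those libraries share a number and deviated together (r = 0.427 between the 2 groups), but the main fit did not pair them. The block moved the count of genes from 1421 to 4563. Cym with MRTX1133 in ethanol-treated 3154 no longer passed when only the groups compared were fitted (3.92, adjusted p = 0.224), and Ctse in 3311 was -0.023 with the replicate block. The cause of these changes was not tested. In 1027B the block changed no direction of the 3 genes.

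With 1 library left out in turn, 101 of 124 values held by the same rules, under which a change of sign in 1027B is not counted. Log2 changes ranged as follows in the 2-week experiment: Cym 1.00 to 2.29, Ctse 0.39 to 1.23. With MRTX1133 in ethanol-treated 3154 they were 3.35 to 4.92 for Cym and -0.079 to 0.27 for Pgc, and after 4OHT 2.86 to 3.58 for Cym, -0.068 to 0.55 for Pgc and -0.11 to 0.70 for Ctse. The interaction was -1.66 to -0.086 for Cym, -0.19 to 0.43 for Pgc and -0.41 to 0.40 for Ctse. In 1027B the range was 7.36 to 8.63 for Cym with trametinib, 5.37 to 6.89 for Cym and 0.087 to 0.47 for Pgc with MRTX1133, and -2.76 to -1.05 for Cym and -1.21 to -0.71 for Pgc between the agents. Ctse there changed sign, at -0.063 to 0.33 with trametinib, -0.21 to 0.34 with MRTX1133 and -0.32 to 0.20 between the agents. Ctse in 3311 ranged from -0.59 to 0.48. The fits with 1 library in a group assume that it varies like the others.

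Counts of genes passing depended on the tool. DESeq2 gave 2311 against 1421 in the 2-week experiment, 330 against 54 for MRTX1133 in ethanol, 1342 against 717 after 4OHT, 36 against 0 for the interaction, 1636 against 913 for MRTX1133 in 1027B, and 712 against 0 for MRTX1133 against trametinib, where the block gave 2050. Fitting only the groups compared gave 3154 against 4795 genes for 4OHT at 48 hours with vehicle, 0 against 54 for MRTX1133 in ethanol and 3932 against 717 after 4OHT. With 1 library left out, the counts were 395 to 2790 in the 2-week experiment, 1668 to 5964 and 1745 to 2805 for 4OHT at 48 hours with vehicle and with MRTX1133, 0 to 309 and 0 to 23 for MRTX1133 in ethanol and after 4OHT, and 1336 to 2754 and 138 to 349 for trametinib and MRTX1133 in 1027B. In 3311 Cym, and in the human lines CTSE, were too low for a comparison at this depth.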
